A study of Mus musculus with 6 samples.

Results

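A set of 45 genes that build tight junctions, desmosomes, nectin contacts and gap junctions, or that set apical-basal polarity, was followed in mouse ovarian surface epithelial cells given Cre to delete Lats1 and Lats2, or given no Cre. The members were given as a list of gene symbols, and all 45 were found by Ensembl gene ID among the 48440 genes of the count table. Poly(A)-selected RNA was sequenced 1 week after cells were transduced with adenovirus. The 3 control libraries (Ad-GFP, genotype label WT) came from cells given a virus that carries GFP, and the 3 knockout libraries (Ad-Cre-GFP, genotype label Lats1/2 knockout) from cells given a virus that carries Cre recombinase with GFP. Every library therefore comes from cells exposed to adenovirus and GFP, and loss of the kinases, exposure to Cre and other differences between the cultures cannot be told apart. Lats1 was at 159 ± 8.74 CPM (SD, n = 3; counts per 1000000 library counts) in the controls and 37.1 ± 1.36 CPM in the knockout libraries, a ratio of 0.232 (log2 change -2.10 ± 0.04 (SE)). Lats2 was at 129.5 ± 2.16 and 98.7 ± 1.97 CPM, a ratio of 0.762 (-0.39 ± 0.03), so most of its RNA was still counted in the libraries labelled knockout. Both genes were lower in every knockout library than in every control library. Counts over whole genes do not show which exons were lost, and "knockout" is used here as the label of these libraries. The sources used here do not give the strain or age of the mice, or whether the cells are a line or primary cells.

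Epithelial cells hold to each other through a belt of junctions. Tight junctions seal the space between cells with claudins and occludin, which bind cytoplasmic plaque proteins of the zonula occludens and cingulin families. Adherens junctions and desmosomes anchor the cells to actin and to keratin filaments, connexins form channels between neighbouring cells, and the PAR, Crumbs and Scribble complexes place these structures along the apical-basal axis. Ovarian surface epithelium is a mesothelium-like layer that keeps simple junctions together with some mesenchymal features. LATS1 and LATS2 are Hippo pathway kinases that restrain the coactivators YAP and TAZ, and several polarity and junction proteins bind upstream Hippo components.

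Of the 45 members, 32 had enough counts to be tested, and 20 of these rose and 10 fell in the knockout, while Pard3 and Patj were not called. A gene was called at an adjusted p under 0.05 in edgeR's quasi-likelihood test over 14811 genes. Calls were frequent in this comparison, in which 69.8% of all tested genes were called, 34.0% higher and 35.8% lower. The median log2 fold change (Ad-Cre-GFP over Ad-GFP) of the tested members was 0.37, beside -0.01 over all tested genes, and the median absolute change was 0.77 beside 0.35. The members were chosen with earlier results of these data known, so these medians and counts describe the list and do not test it. A call with a change of at least 2-fold was made for 7 members that rose and 4 that fell, against 6.25% and 7.56% of all tested genes. Cldn1, Cldn15 and Nectin4 among the 7 met the low-count filter in the knockout alone and Crb3 among the 4 in the controls alone, so the filter favoured their direction. Of the 28 members that met it in both groups, 17 rose and 9 fell, 4 and 3 of them at least 2-fold. The median log2 fold change of these 28 was 0.30. The groups of libraries did not overlap for 30 of the 32 tested members, 20 higher and 10 lower in the knockout, beside 73.0% of all tested genes (35.4% higher and 37.6% lower). In bulk RNA, fewer cells of a type and less RNA per cell cannot be told apart.

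**Figure D1:**
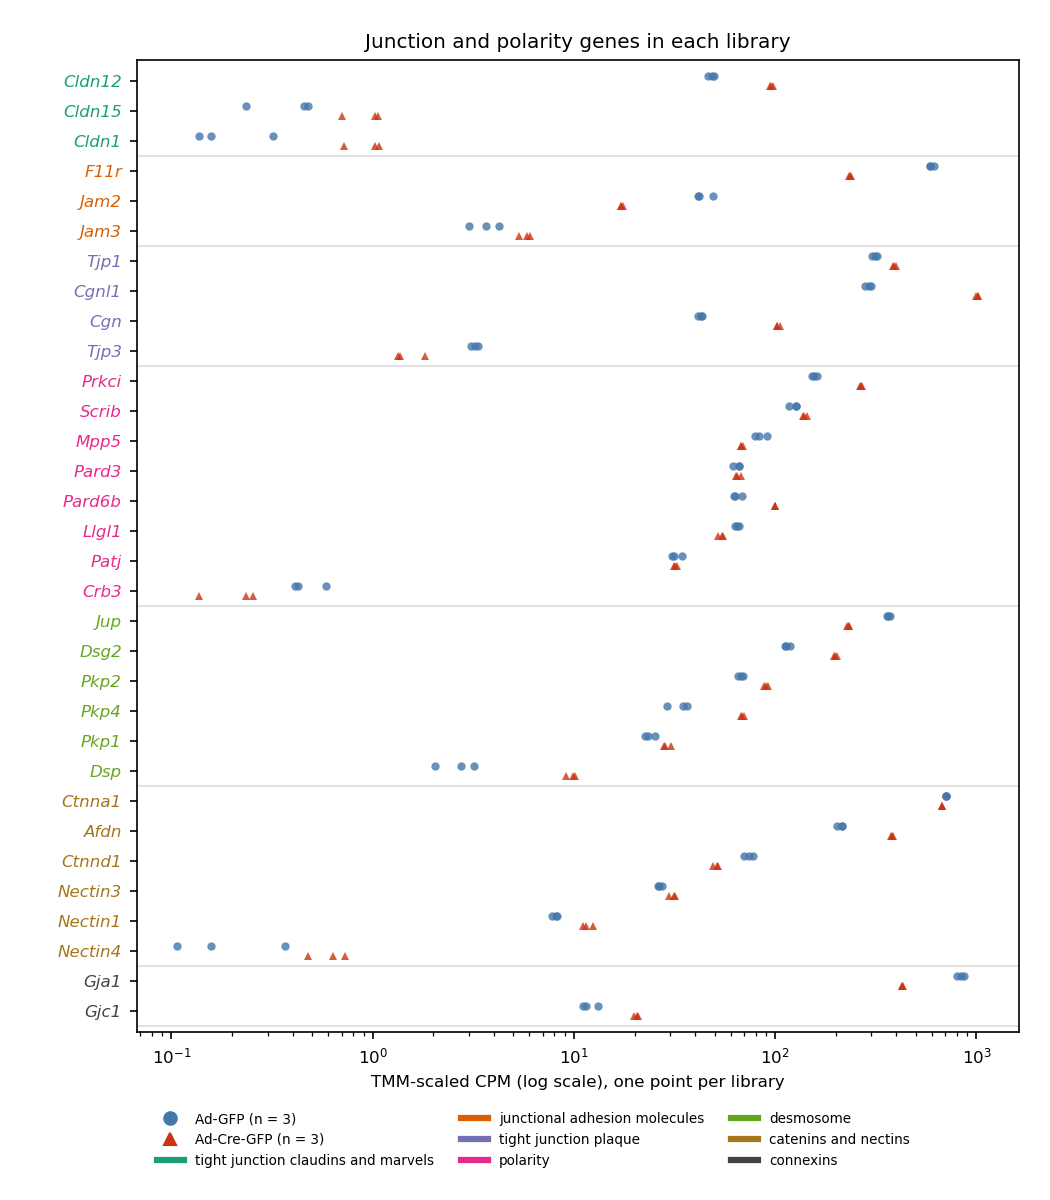
Each row is a tested gene and each point a library, on a log axis of counts per 1000000 library counts (CPM) after TMM scaling; circles are the 3 Ad-GFP and triangles the 3 Ad-Cre-GFP libraries, and the colour of a gene name gives its role. Points of both groups overlap for Pard3 and Patj and are apart for the other 30 genes.

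**Figure D2:**
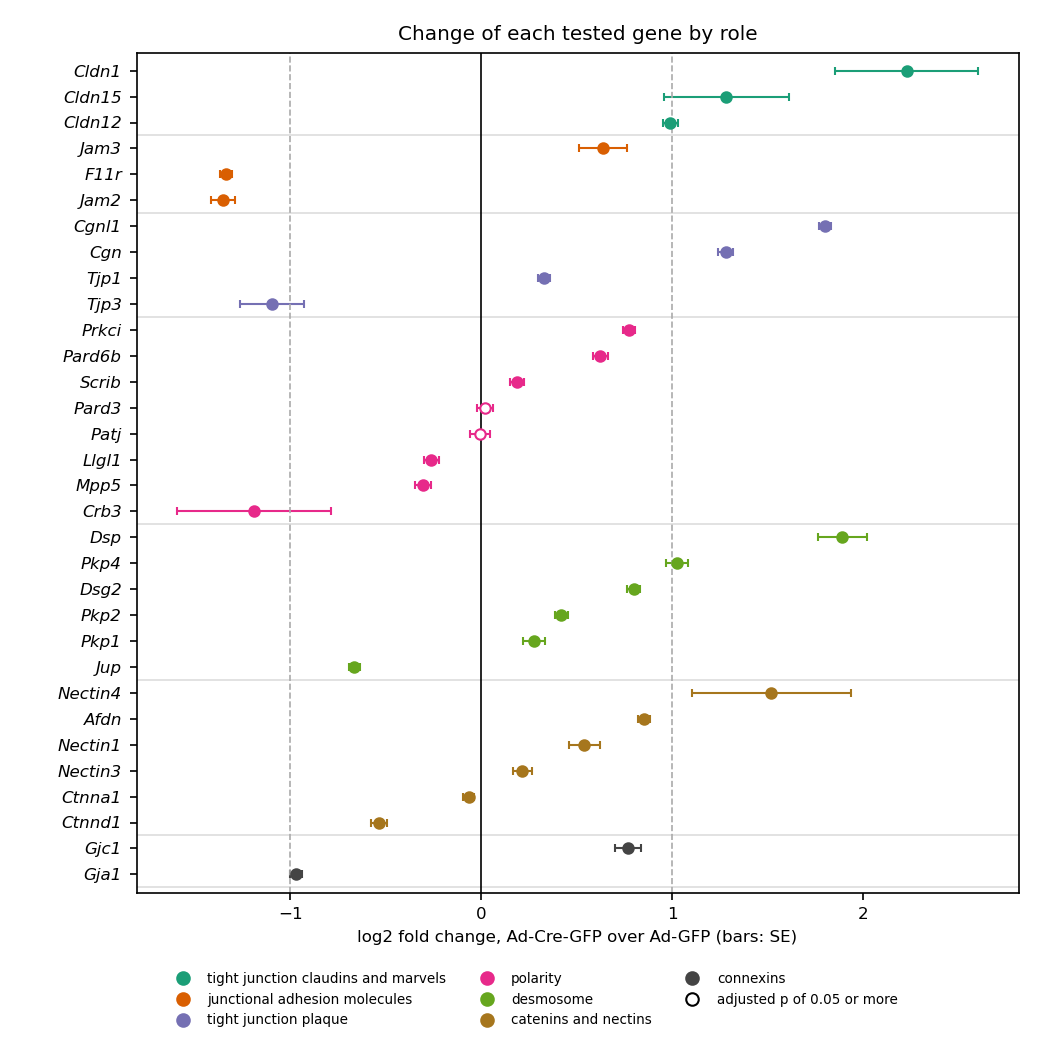
Each point is the log2 fold change of a tested gene, Ad-Cre-GFP over Ad-GFP, with bars for the standard error; filled points passed the test and dashed lines mark a 2-fold change. Cldn1, Dsp and Cgnl1 stand furthest to the right, F11r and Jam2 furthest to the left. Every tested role other than the claudins holds changes in both directions.

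Promoter sequence was examined because genes of a single role moved in opposite directions. RefSeq promoter windows (GRCm38.p6, 250 bases before to 50 after the start) were found for 31 of the 45 members, as 44 windows. Stretches before the start are shown for 4 members whose changes are described next, 2 that rose (Prkci and Cgnl1) and 2 that fell (F11r and Tjp3). Capitals mark GGAATG, the core bound by TEAD factors, or CAGGTG, an E-box core bound by SNAI and ZEB factors, on either strand (CATTCC and CACCTG on the reverse strand).
Prkci (chr3:30995521-30995770, plus strand): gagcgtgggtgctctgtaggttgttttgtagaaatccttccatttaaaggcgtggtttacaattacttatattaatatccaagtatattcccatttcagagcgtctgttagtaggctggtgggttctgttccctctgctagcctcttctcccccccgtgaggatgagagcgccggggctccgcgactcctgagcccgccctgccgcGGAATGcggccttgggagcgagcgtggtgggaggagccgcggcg
Cgnl1 (chr9:71771603-71771852, minus strand): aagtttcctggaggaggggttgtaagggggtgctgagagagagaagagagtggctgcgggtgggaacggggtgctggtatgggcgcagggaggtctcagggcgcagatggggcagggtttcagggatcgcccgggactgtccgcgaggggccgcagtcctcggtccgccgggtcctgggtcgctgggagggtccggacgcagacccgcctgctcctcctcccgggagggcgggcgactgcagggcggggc
F11r (chr1:171437311-171437560, plus strand): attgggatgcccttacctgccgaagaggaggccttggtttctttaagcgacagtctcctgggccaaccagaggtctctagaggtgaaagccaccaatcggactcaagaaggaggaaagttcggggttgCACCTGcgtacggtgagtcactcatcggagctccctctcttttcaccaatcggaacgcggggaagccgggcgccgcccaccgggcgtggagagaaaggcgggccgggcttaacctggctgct
Tjp3 (chr10:81291582-81291831, minus strand): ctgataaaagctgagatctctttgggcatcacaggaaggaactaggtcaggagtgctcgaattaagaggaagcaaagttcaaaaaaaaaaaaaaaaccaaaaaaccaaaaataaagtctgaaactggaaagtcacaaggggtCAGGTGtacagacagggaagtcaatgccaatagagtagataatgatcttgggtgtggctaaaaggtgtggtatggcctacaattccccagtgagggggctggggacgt
The Prkci stretch holds GGAATG beginning 44 bases before the start, the F11r stretch CACCTG beginning 122 bases before it and the Tjp3 stretch CAGGTG beginning 108 bases before it, and the Cgnl1 stretch holds neither motif. Over the whole windows, GGAATG was present in 6 of 44 member windows (13.6%), beside 14.7% of all 32851 windows of this length. CAGGTG was present in 19 of 44 member windows (43.2%), beside 20.2% of all windows. By gene, CAGGTG was in a window of 3 of the 13 members that rose (Dsp, Pard6b and Pkp4) and 3 of the 7 that fell (Crb3, F11r and Tjp3). It was in both that were not called and 7 of the 9 that had too few counts to test. A second Tjp3 window holds CACCTG beginning 17 bases before its start. The 4 stretches shown are examples and do not stand for these shares. GGAATG was in a window of 3 of the 13 that rose, 1 of the 7 that fell, 0 of the 2 not called and 2 of the 9 not tested. Counted by gene, GGAATG was in 19.4% of members with a window and 16.6% of all such genes. The same shares for CAGGTG were 48.4% and 22.6%. These are matches of letters and do not show binding, and some genes have several windows that overlap.

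Claudins form the paracellular seal, and most claudin genes were silent or nearly so in these cells. Cldn12 (chr5:5489537-5514958, GRCm38, protein-coding), a claudin that lacks the usual binding motif for zonula occludens proteins, was the exception. Its level was 46.4, 48.5 and 49.7 CPM in the control libraries and 95.4, 97.7 and 93.8 CPM in the knockout libraries, 1.98-fold higher (log2 change 0.99 ± 0.04 (SE), adjusted p = 8.45e-16). All knockout libraries were about alike and lay far above all control libraries. Cldn1, a barrier-forming claudin, rose from 3, 4 and 6 counts to 21, 32 and 28 counts (log2 change 2.23 ± 0.38, adjusted p = 1.88e-05), but remained at 0.937 ± 0.191 CPM (SD, n = 3) in the knockout. Cldn15, a claudin that forms cation pores, rose from 10, 6 and 9 counts to 31, 21 and 28 (1.28 ± 0.33, adjusted p = 0.00151). For both genes, all libraries of a group passed the low-count filter in the knockout alone. A member with the control level of Cldn1 could be tested only if it was higher in the knockout. For Cldn15, Ad-GFP replicates 1 and 3 also passed the filter's cutoff of 0.377 CPM (unscaled), so this limit was less strict.

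The other 10 members of the claudin and occludin group had too few counts to test. Cldn3 and Cldn4, claudins of glandular and simple epithelia, and Cldn6 had 0 counts in all 6 libraries. This allows up to 3 counts per group, or 0.0457 CPM in the controls and 0.0342 CPM in the knockout. Cldn7 totalled 3 control counts and 4 knockout counts. Ocln, which encodes occludin, had 1, 6 and 4 control counts and 3, 1 and 1 knockout counts, and these groups overlapped. The tricellulin gene Marveld2 had 1 and 4 counts in all, and Marveld3 7 and 13. Cldn23 had no count in the controls and 3, 5 and 7 counts in the knockout, and the 95% exact binomial interval of the ratio begins at 2.68 (counting error only). Without the low-count filter, Cldn23 was called (adjusted p = 0.00115). Cldn10 had 0 and 6 counts in all and Cldn11 4 and 0, and the intervals of both ratios include equal levels. Of these 10 genes, Cldn23 alone was called when the filter was dropped.

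The junctional adhesion molecules, immunoglobulin-like proteins that sit at the tight junction and bind PAR-3, held 2 of the 4 members called at least 2-fold lower, F11r and Jam2. F11r (chr1:171437535-171464603), which encodes JAM-A and whose promoter is shown among the sequences, had 588, 585 and 618 CPM in the controls and 239, 236 and 234 CPM in the knockout. The knockout libraries fell within a narrow band far below the controls, 2.53-fold lower (-1.34 ± 0.03, adjusted p = 1.35e-19). Jam2 (chr16:84774123-84825928), which encodes JAM-B, fell by a like amount, from 42.0, 41.4 and 49.1 CPM to 17.1, 17.03 and 17.5 CPM (-1.35 ± 0.06, adjusted p = 7.66e-14). Jam3, which encodes JAM-C, the binding partner of JAM-B, rose from a low level of 3.64 ± 0.622 to 5.75 ± 0.359 CPM (0.64 ± 0.13, adjusted p = 0.000120). F11r made up 96.4% ± 0.116 of the summed level of these 3 genes per transcript length in the controls and 95.03% ± 0.138 in the knockout, and their sum went from 233 ± 7.49 to 93.3 ± 0.948 RPKM (CPM divided by kilobases of exon).

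The plaque genes held Cgnl1, which rose the most of the members above 20 CPM in both groups. Cgnl1 (chr9:71626509-71771602), which encodes paracingulin, a junctional scaffold related to cingulin, was at 291, 299 and 279 CPM in the controls and at 1023, 990.2 and 1017 CPM in the knockout. This was a 3.48-fold rise with no control library near any knockout library (1.80 ± 0.03, adjusted p = 1.77e-21). Its paralog Cgn, cingulin, rose from 42.8, 43.3 and 41.3 to 106, 102 and 102 CPM (1.28 ± 0.04, adjusted p = 8.13e-18). Another gene, BC021767, aligns to Cgn over 1716 bases at 98.7% identity. It had 1178 counts over all libraries, beside 2824 control and 8925 knockout counts for Cgn (chr3:94760069-94786492), so reads may be split between them. Tjp1, which encodes the scaffold ZO-1, rose little, from 312 ± 8.14 to 391 ± 5.69 CPM (0.33 ± 0.03, adjusted p = 2.40e-09). Tjp3, the ZO-3 gene, went the other way at a low level, from 3.24, 3.33 and 3.07 to 1.37, 1.34 and 1.82 CPM (-1.10 ± 0.17, adjusted p = 4.85e-06). The opposite-strand gene Apba3 overlaps 40 bases of Tjp3 exons, had 7284 counts and fell too (-0.48 ± 0.04), and its part in the Tjp3 value was not tested.

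Of the 8 polarity genes, 3 rose, 3 fell and 2 were not called. In the PAR complex, Prkci (chr3:30995747-31052959), the atypical protein kinase C iota that phosphorylates polarity targets, rose from 153, 161 and 155 to 264, 271 and 268 CPM (0.77 ± 0.03, adjusted p = 1.61e-15). Its adaptor Pard6b rose from 64.6 ± 3.53 to 99.3 ± 0.120 CPM (0.62 ± 0.04, adjusted p = 2.74e-12). The third component, the scaffold Pard3, had 65.9, 62.0 and 66.1 CPM in the controls and 67.9, 64.0 and 64.4 CPM in the knockout, overlapping groups with no call (0.02 ± 0.04, adjusted p = 0.685). In the Crumbs complex, Mpp5, which encodes PALS1, fell from 84.5 ± 5.95 to 68.2 ± 1.09 CPM (-0.31 ± 0.04, adjusted p = 2.32e-06). Patj, the multi-PDZ partner of PALS1, overlapped between groups, with 30.8, 31.4 and 34.3 CPM in the controls and 31.8, 31.5 and 32.5 CPM in the knockout (-0.01 ± 0.05, adjusted p = 0.923). Short parts of Patj align to other genes, such as 252 bases at 97.2% identity to Abhd2. Abhd2 had 58809 counts beside 4886 for Patj, and the effect on the Patj value was not tested.

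Crb3, the short Crumbs protein of epithelia, was close to the limit of detection, with 9, 15 and 8 control counts and 4, 7 and 7 knockout counts. It was called lower (-1.19 ± 0.40, adjusted p = 0.0123) and entered the test through the control libraries alone. DESeq2 did not call it (adjusted p = 0.0844), nor did edgeR when Ad-GFP replicate 2 (adjusted p = 0.0817) or Ad-Cre-GFP replicate 1 (adjusted p = 0.0654) was left out. In the basolateral Scribble complex, Scrib rose from 123 ± 5.41 to 140.3 ± 2.70 CPM (0.19 ± 0.03, adjusted p = 5.50e-05) and Llgl1 fell from 64.6 ± 1.48 to 53.9 ± 1.47 CPM (-0.26 ± 0.04, adjusted p = 3.81e-06). Llgl1 shares 64 exon bases with the opposite-strand gene Flii, which had 16761 counts. No polarity member with more than 1 CPM changed by 2-fold.

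Of 6 tested desmosomal genes, 5 rose, while Jup, the highest of them per transcript length in both groups, fell. Over all tested genes, 34.0% were called higher and 35.8% lower. Dsp (chr13:38151294-38198577), desmoplakin, which ties the desmosome to keratin, rose from 3.19, 2.03 and 2.76 to 9.92, 10.2 and 9.16 CPM, 3.66-fold higher with all knockout libraries well above the controls (1.89 ± 0.13, adjusted p = 1.34e-11). Dsg2, the desmosomal cadherin desmoglein 2, rose from 112, 113 and 118 to 198, 195 and 203 CPM (0.80 ± 0.03, adjusted p = 2.51e-15). Its usual adhesive partner Dsc2, desmocollin 2, had 0 counts in all 6 libraries.

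Plakophilins are armadillo-repeat proteins that join desmosomal cadherins to desmoplakin. Pkp4, which also acts at adherens junctions, rose from 35.0, 36.3 and 29.2 to 68.3, 70.3 and 67.4 CPM (1.03 ± 0.06, adjusted p = 6.14e-11). Pkp2 rose from 67.4 ± 1.72 to 90.1 ± 1.66 CPM (0.42 ± 0.04, adjusted p = 6.57e-10) and Pkp1 from 23.8 ± 1.47 to 28.9 ± 1.39 CPM (0.28 ± 0.06, adjusted p = 0.000207). Pkp3 totalled 21 control counts and 11 knockout counts, too few to test, with a knockout over control ratio of 0.392 (95% exact binomial interval 0.171 to 0.850, counting error only). Jup (chr11:100368958-100397763), plakoglobin, which serves both desmosomes and adherens junctions, fell from 365, 370.2 and 361 to 232, 232 and 228 CPM (-0.66 ± 0.03, adjusted p = 7.02e-15). Summed per length over all 8 members, the desmosomal genes held 94.2 ± 1.16 RPKM in the controls and 95.5 ± 0.164 RPKM in the knockout, a sum in which Jup alone went from 56.8 to 35.8 RPKM.

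Of the 6 catenin and nectin genes of the adherens junction, 4 rose and 2 fell, with a median absolute log2 change of 0.54. Ctnna1, alpha-catenin, the link from cadherin to actin, was at 705, 707 and 704 CPM in the controls and 678, 671 and 673 CPM in the knockout. The libraries of both groups were apart, but the difference was small (-0.07 ± 0.03, adjusted p = 0.0405). The call was lost with DESeq2 (adjusted p = 0.0904), with its size factors (adjusted p = 0.103), under both other low-count filters (adjusted p = 0.0708 and 0.263), and without each library in turn except Ad-GFP replicate 3 (adjusted p from 0.0511 to 0.221). Ctnnd1, p120-catenin, which keeps cadherins at the surface, fell from 73.8 ± 3.72 to 50.7 ± 1.37 CPM (-0.54 ± 0.04, adjusted p = 1.86e-10). Gm28635, annotated as protein-coding, overlaps Ctnnd1 on the same strand and aligns to it over 4569 bases at 96.3% identity. It was listed at 0 counts. How reads shared by both genes were counted is not known, and the effect on the Ctnnd1 value was not tested.

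Afdn (chr17:13760539-13906150), afadin, which anchors nectins to actin, rose from 215, 214 and 204 to 381, 378 and 384 CPM (0.85 ± 0.03, adjusted p = 2.55e-16). All 3 nectins among the members rose. Nectin1 went from 8.04 ± 0.221 to 11.7 ± 0.679 CPM (0.54 ± 0.08, adjusted p = 4.08e-06), and Nectin3, a partner of nectin-1 across the cell contact, from 26.7 ± 0.752 to 30.9 ± 1.06 CPM (0.22 ± 0.05, adjusted p = 0.000757). Nectin4 had only 8, 4 and 2 control counts and 14, 19 and 20 knockout counts (1.52 ± 0.42, adjusted p = 0.00275), and entered the test through the knockout libraries alone.

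Of the connexins, the main gene fell. Gja1 (chr10:56377330-56402513), connexin 43, the main connexin of granulosa cells, had 840.03, 805 and 869.996 CPM in the controls and 425, 431 and 427 CPM in the knockout. Every knockout library was near 1.96-fold below the control mean (-0.97 ± 0.03, adjusted p = 4.80e-17). Gjc1, connexin 45, rose from 11.9 ± 1.11 to 20.5 ± 0.449 CPM (0.77 ± 0.07, adjusted p = 1.69e-09), and Gjb2, connexin 26, had 1 control count and no knockout count. Over all 20 connexin genes, the summed level went from 108 ± 4.997 to 60.1 ± 0.731 RPKM, and the share of Gjc1 in it from 2.21% ± 0.298 to 6.80% ± 0.222.

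Set against each other per transcript length, the members changed order at the top. In the controls F11r was highest at 224 ± 6.95 RPKM, followed by Ctnna1 (109.8 ± 0.222), Gja1 (81.7 ± 3.19), Jup (56.8 ± 0.705), Tjp1 (39.9 ± 1.04) and Cgnl1 (37.0 ± 1.30). In the knockout Cgnl1 was highest at 129 ± 2.21 RPKM, followed by Ctnna1 (105 ± 0.539), F11r (88.7 ± 0.928), Tjp1 (50.1 ± 0.728), Prkci (48.2 ± 0.569) and Gja1 (41.7 ± 0.320). The neighbours Scrib (19.1 ± 0.839) and Pard6b (19.0 ± 1.04) did not differ beyond their spread in the controls. By role, the summed level of the 4 plaque genes went from 84.8 ± 0.547 to 196 ± 2.80 RPKM, that of the 8 polarity genes went from 96.4 ± 0.9005 to 125 ± 0.486 RPKM, and that of the 6 catenin and nectin genes from 144 ± 0.331 to 154 ± 0.826 RPKM.

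**Figure D3:**
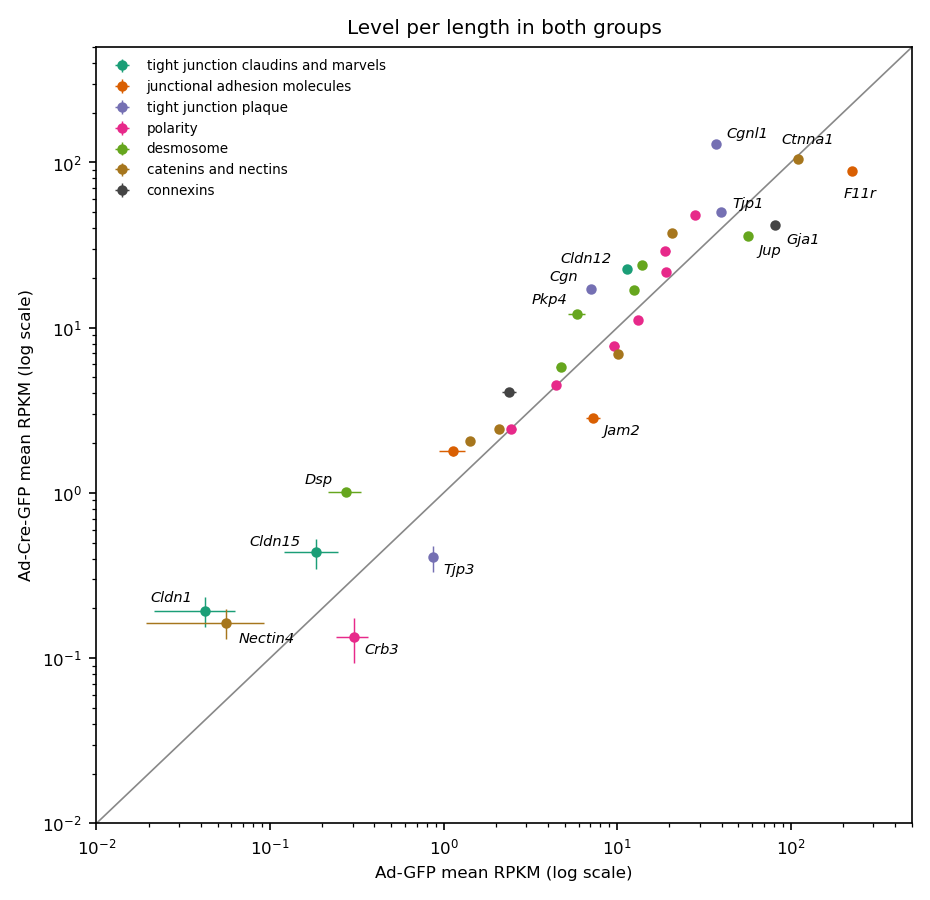
Each point is a tested gene at its mean RPKM in Ad-GFP (x axis) and Ad-Cre-GFP (y axis), both on log scales, with bars for the SD of 3 libraries; colours give the role and the line marks equal levels. F11r, Gja1, Jup and Jam2 lie below the line and Cgnl1, Cgn, Cldn12 and Dsp above it.

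Relatives of the members outside the list were read in the same test. Of 83 other junction and polarity genes, 43 were tested, 20 rose, 15 fell and 8 were not called, with a median log2 change of -0.0024. The rises were 46.5% and the falls 34.9% of those tested, beside 34.0% and 35.8% of all tested genes. Among other tight junction genes, 7 of 14 rose and 4 fell. Ybx3, a transcription factor that binds ZO-1, rose by 0.90 ± 0.03 (adjusted p = 4.17e-16) and Mpdz, a multi-PDZ paralog of Patj, by 0.72 ± 0.03 (adjusted p = 1.67e-14). Among other polarity genes, 5 of 16 rose and 8 fell. Crb2, a Crumbs paralog, had 127, 122 and 131 CPM in the controls and 55.7, 57.7 and 56.1 CPM in the knockout (-1.16 ± 0.04, adjusted p = 2.36e-17) and held 98.4% of the summed Crumbs level in both groups. The kinase Mark2 fell (-0.76 ± 0.03, adjusted p = 1.15e-15), and Llgl2 rose from 16.2, 16.5 and 15.5 to 42.8, 46.3 and 43.4 CPM (1.46 ± 0.05, adjusted p = 4.85e-16).

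In the other lists, Perp, a desmosomal protein that p53 regulates, rose from 89.7 ± 2.94 to 191 ± 3.29 CPM (1.10 ± 0.03, adjusted p = 1.39e-17). Dsg4 rose from 9 to 85 counts in all (2.81 ± 0.39, adjusted p = 1.35e-06), a share of 1.16% ± 0.203 of the desmoglein level in the knockout. Of 6 other catenins, nectins and partners, 4 rose and 1 fell. Nectin2, which held 91.3% ± 0.287 of the nectin level in the controls, fell by 0.44 ± 0.03 (adjusted p = 2.14e-10). The summed level of the 4 nectin genes, Nectin2 included, went from 40.9 ± 1.32 to 32.2 ± 0.765 RPKM. Vcl, vinculin, rose by 0.30 ± 0.03 (adjusted p = 2.11e-08), and the neural alpha-catenin gene Ctnna2 rose from 3 to 81 counts in all (4.23 ± 0.53, adjusted p = 2.99e-07). Ctnnb1, beta-catenin, was not called (-0.05 ± 0.03, adjusted p = 0.123). Of 4 other connexin and pannexin genes, 2 rose and 2 fell. Panx3, a pannexin channel gene, went from 1, 0 and 0 counts to 113, 125 and 104 counts (adjusted p = 2.08e-13), a ratio of 256 with a 95% exact binomial interval of 45.6 to 10136 for counting error only. Dsg4, Ctnna2 and Panx3 entered the test through the knockout libraries alone. Panx1 rose by 0.49 ± 0.07 (adjusted p = 7.82e-06).

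Within several families the share of each gene shifted. Llgl2 went from 19.98% ± 0.165 to 45.1% ± 1.06 of the summed Llgl level per length, since Llgl1 fell while Llgl2 rose. Pard6b went from 65.7% ± 2.45 to 79.5% ± 1.23 of the PAR6 genes, while Pard6a fell (-0.64 ± 0.09, adjusted p = 1.27e-06). Prkci, already 93.8% ± 0.521 of atypical protein kinase C, went to 96.9% ± 0.209, with the rise of Prkci given among the polarity genes and a smaller fall of Prkcz (-0.28 ± 0.08, adjusted p = 0.00404). Pkp4 went from 25.2% ± 2.25 to 34.7% ± 0.585 of the plakophilins. For each of these shares, every knockout library lay outside the range of the controls. Cldn12 held 80.1% ± 0.588 of the claudin level in the controls and 83.1% ± 1.04 in the knockout, but the next claudin, Cldn22, lies wholly within exons of the opposite-strand gene Wwc2, which had 89240 counts beside 335, so its level is uncertain.

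**Figure D4:**
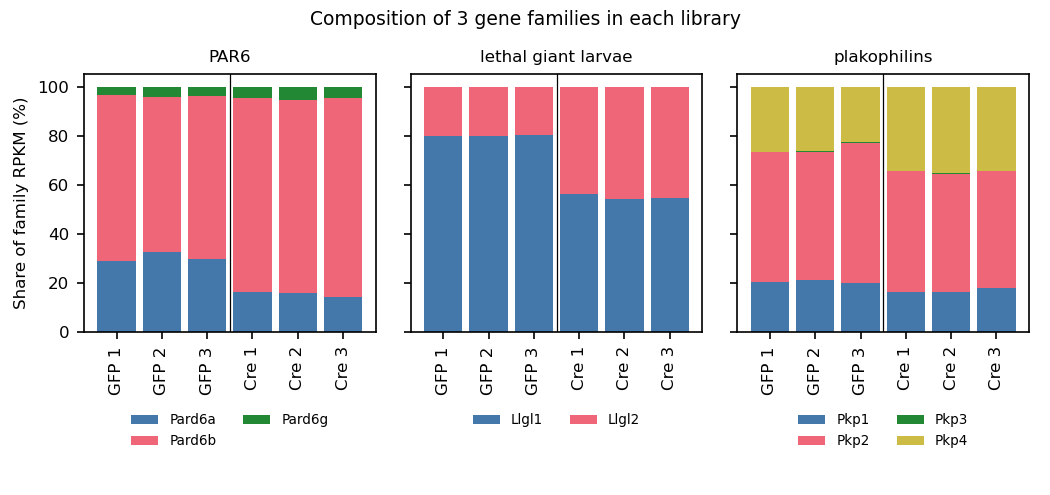
Each bar is a library (GFP for Ad-GFP, Cre for Ad-Cre-GFP, with the replicate number) and shows how the summed RPKM of a family divides among its genes, in percent. The share of Llgl2 is 19.98% in the controls and 45.1% in the knockout, and Pard6a and Pkp2 take smaller shares in the Cre libraries.

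Checks of the libraries bear on all of these values. The libraries held between 18690235 and 30304033 counts, with every knockout library deeper than every control library. All 11 markers of ovarian surface epithelium and mesothelium, such as Krt8, Krt18, Wt1, Msln and Upk3b, were detected. They summed to 4180.3 to 4196 CPM in the controls and 3752 to 3785 CPM in the knockout. Of the 11, 5 rose and 6 fell, 3 and 4 of them at least 2-fold. Krt7 rose the most (1.39 ± 0.15), and Krt19 (-1.60 ± 0.03) and Gata4 (-1.37 ± 0.03) fell the most. Lhx9 was low, at 0.623 CPM in the controls and 0.297 CPM in the knockout. Summed oviduct markers were 3.43 to 4.59 CPM and 2.64 to 2.93 CPM, with Epcam called lower, from 106 to 11 counts in all, and Pax8 at no more than 3 counts in any library. Granulosa markers summed to 3.26 to 3.85 CPM and 2.99 to 4.08 CPM, with Fshr and Cyp19a1 at 0. The 3 tested granulosa markers were all called, Foxl2 (2.24 ± 0.49) and Amh (1.17 ± 0.21) higher and Inha (-1.52 ± 0.20) lower. Stromal fibroblast markers summed to 111 to 118 CPM in the controls and 23.7 to 27.6 CPM in the knockout, with all 4 tested falling and Lum at 0. Endothelial markers summed to 0.107 to 0.473 CPM and 2.13 to 2.61 CPM, with Kdr alone called, from 4 to 173 counts in all, while Pecam1 had 14 and 10, Cdh5 0 and 3, and Tie1 none. Immune markers summed to 10.96 to 13.4 CPM and 6.53 to 7.14 CPM, with Cd14 lower (-1.23 ± 0.11), Cd68 not called (-0.02 ± 0.15) and Adgre1 at 0. Among the called markers, Lhx9, Epcam, Pdgfra and Dpt met the low-count filter in the controls alone, and Foxl2 and Kdr in the knockout alone. For these genes the filter favoured the direction of the call. The part of the marker lists in the changes of the junction genes was not tested. Ad-GFP replicate 3, which has the fewest counts, was the highest control library for 15 and the lowest for 14 of the 32 tested members, and without it 20 members still rose and 10 fell.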

How the data were processed

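The deposited values are whole-number counts per gene that the authors made from BAM files, per the file headers. Build GRCm38 and the tools kallisto 0.46.2 and sleuth 0.30.1 are listed in the submitters' processing notes. No source used here gives the aligner, counter or strand setting. Gene IDs were matched to GENCODE mouse release M21 (48058 of 48440). Counts were filtered with filterByExpr (10 counts at the median library size in 3 libraries), TMM-scaled and tested with edgeR 4.0.16 in R 4.3.3 (robust quasi-likelihood test, Benjamini-Hochberg adjustment). The filter was met by 28 members in both groups, 3 in the knockout alone and 1 in the controls alone. CPM are TMM-scaled (marker sums unscaled) and given per library or as mean ± SD (n = 3). RPKM uses the union of exons, and SE is the log2 fold change over the square root of F. Alternatives were DESeq2 1.42.0, limma-voom (limma 3.58.1), other scalings and filters, plain dispersion, a block for replicate number and each library left out. Copies were alignments of at least 200 bases at 90% identity (minimap2 2.31). The script was tested on simulated data with known changes.

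Replicates of a group differed beyond sampling noise (chi-square per gene 2.04 to 4.27). No label ties them to separate cultures, so the p-values reflect the spread among these libraries, which may be technical. The members and lists were chosen with earlier results of these data known. Values in every library are given at least for members called with an absolute log2 fold change of 1 or more, for the member of each role with the smallest adjusted p or highest RPKM, and for uncalled members of at least 20 CPM. Of other junction genes, up to 3 called per list with the smallest adjusted p are named. Some genes that this rule picks are not reported here. Ctnnb1, Pard6a, Prkcz, Cldn22, the families and the example markers were chosen after their values were seen.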

Additional observations from a re-analysis of the deposited data

How the results depend on the processing

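Under 14 alternatives, 17 to 21 members rose and 8 to 10 fell, and 9351 to 10854 genes were called in all. The lowest count of rises, 17, came with a mean of at least 1 CPM, under which Cldn1, Cldn15, Nectin4 and Crb3 were not tested. Of 444 values of the 32 tested members, 424 kept their direction and their side of the threshold, and 28 members did so under every alternative that tested them. The 12 lost calls were those of Crb3 and Ctnna1. The 8 changes of sign were of Pard3 and Patj, which were never called. Patj was 0.0063 with DESeq2 size factors, 0.011 with no low-count filter, 0.0017 with a mean of at least 1 CPM, 0.0052 with DESeq2, and -0.0372 to 0.0380 when a library was left out. Pard3 was -0.0122 without Ad-GFP replicate 2 and up to 0.0450 without Ad-Cre-GFP replicate 3. The cause was not tested.

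With the replicate number as a block, 20 members rose and 10 fell, and 10478 genes were called. Same-numbered libraries deviated from their group means with correlations of 0.049, 0.051 and 0.0050, none above 0.1, so the numbers were not taken as pairs. Counts per library limit the members under about 1 CPM, for which only large differences can pass the test.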
